A study of Mus musculus with 5 samples.

Results

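The Sox genes encode transcription factors that bind DNA through a high mobility group domain, and 10 of them, Sox1, Sox2, Sox3, Sox4, Sox5, Sox6, Sox8, Sox9, Sox10 and Sox11, were followed here in mouse medulloblastoma and postnatal cerebellum. Their members on the array were the probe sets whose only gene symbol in the platform annotation was one of these names. This gave 37 of the 45101 probe sets in the table, for 10 of 18193 named genes. Total RNA had been hybridised to Affymetrix arrays from 4 medulloblastomas, tumours of the cerebellum, and from 1 cerebellum labelled P5, read as postnatal day 5. The labels give neither genotype, treatment nor age for any tumour, nor the genotype of the cerebellum, although the series title speaks of Cxcr6 mutant mice and a Smoothened inhibitor. How many animals went into each RNA is not stated. Whether the tumours were primary or transplanted is not stated either. The array titles start with 1 of 2 prefixes, ken (medulloblastomas 1 and 2) or hmk (medulloblastomas 3 and 4 and the cerebellum). Every array had the same trimmed mean, and its median signal was 190.9 to 213.2 in the tumours and 231.7 in the cerebellum. With 1 cerebellum, tumour cannot be told apart from age, or from that one array.

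Sox factors are grouped by their DNA-binding domain. SoxB1 factors (Sox1, Sox2, Sox3) hold neural progenitors in an undifferentiated state, and SoxC factors (Sox4, Sox11) act as neurons begin to differentiate. SoxD factors (Sox5, Sox6) lack an activation domain of their own and tune the activity of other Sox proteins, and SoxE factors (Sox8, Sox9, Sox10) direct glial and neural crest lineages. In the mouse cerebellum Sox2 and Sox9 are known from Bergmann glia, the radial glia of this tissue, Sox10 from oligodendrocytes, and Sox4 and Sox11 from immature granule neurons. In mouse medulloblastoma driven by Hedgehog signalling, Sox2 is known to mark a small pool of slowly cycling cells.

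The SoxB1 genes Sox1 and Sox2 lay on opposite sides of the cerebellum in all 4 tumours, and their promoters are shown because they are the contrasting members of one group. Each sequence is the 250 bases before the gene's start in RefSeq, build GRCm38.p6, on the plus strand. The Sox1 sequence lies at chr8:12395269-12395518 and the Sox2 sequence at chr3:34649745-34649994. Capitals mark a Sox-type motif, searched as ACAATG or ACAAAG on both strands.
Sox1: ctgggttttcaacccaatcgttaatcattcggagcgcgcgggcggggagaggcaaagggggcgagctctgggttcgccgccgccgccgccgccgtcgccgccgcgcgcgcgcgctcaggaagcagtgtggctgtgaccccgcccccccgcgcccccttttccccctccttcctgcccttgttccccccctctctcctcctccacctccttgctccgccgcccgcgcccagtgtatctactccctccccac
Sox2: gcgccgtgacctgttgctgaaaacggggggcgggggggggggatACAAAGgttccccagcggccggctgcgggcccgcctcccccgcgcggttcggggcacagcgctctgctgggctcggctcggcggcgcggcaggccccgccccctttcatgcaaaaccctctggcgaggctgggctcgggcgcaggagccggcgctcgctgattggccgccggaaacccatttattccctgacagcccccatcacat
The Sox2 window held ACAAAG with its first base 206 bases before the start, and the Sox1 window held neither form. Of 32841 such windows in the RefSeq table, 25.2% held at least one of the forms. The Gli-type motif ACCACCCA was in neither window and was present in 1.28% of all windows. Both windows were rich in CG dinucleotides, with 29 in Sox1 and 27 in Sox2, against a median of 6 over all windows. These matches describe the letters and say nothing of binding. Entries were found for 7 of the 10 genes; Sox3, Sox9 and Sox10 had none in that table.

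No Sox gene was called different between the tumours and the cerebellum in limma at a Benjamini-Hochberg adjusted p under 0.05, with all 10 tested. Over all 14109 genes tested, 0.312% were called higher and 0.177% lower. At an unadjusted p under 0.05 the counts were 1 higher (Sox1) and 3 lower (Sox2, Sox3 and Sox6), where 7.72% and 7.44% of all genes reached that level. Sox1 and Sox9 were above the cerebellum in every tumour, as were 25.1% of all genes. Sox2, Sox3, Sox5, Sox6 and Sox10 were below it in every tumour, as were 30.8% of all genes, and Sox4, Sox8 and Sox11 overlapped it. Sox1 was at least 2-fold above the cerebellum in each tumour and Sox3 at least 2-fold below, against 2.01% and 2.63% of all genes. The median log2 difference of the 10 genes was -0.55, beside -0.07 over all genes tested. With 4 tumours and 1 cerebellum, the smallest p of an exact permutation test is 0.2, and the spread in limma comes from the tumours alone. Here each gene is read from its brightest probe set by mean signal, and differences are tumour minus cerebellum on the log2(signal + 32) scale with the standard error (SE) of the fit.

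**Figure D1:**
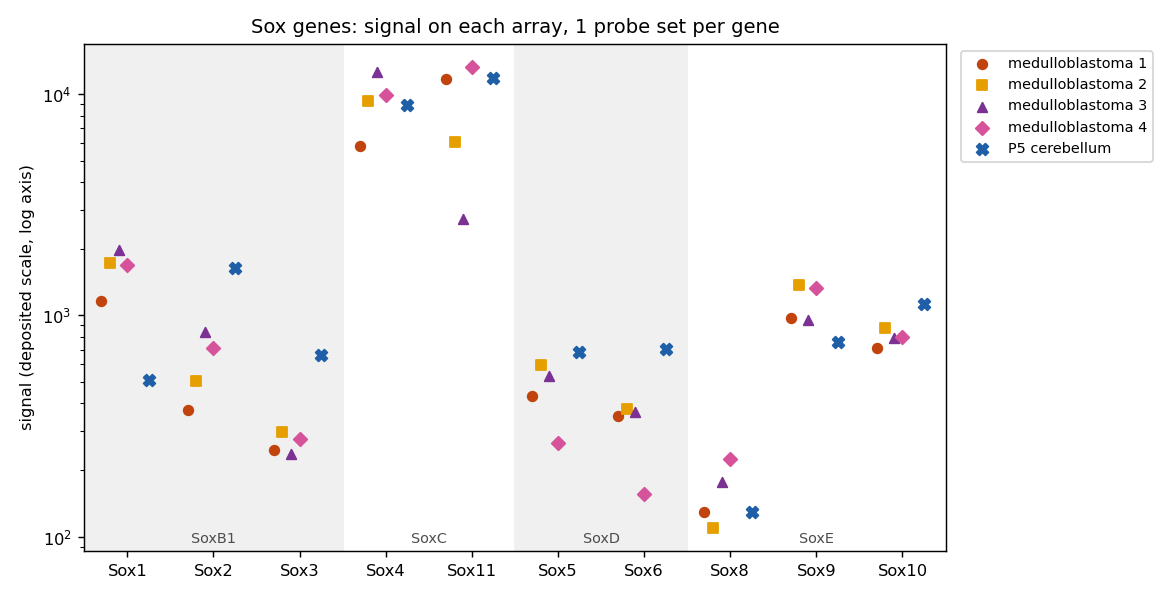
Signal of 10 Sox genes on each array (log axis), with medulloblastomas 1 to 4 and then the P5 cerebellum from left to right within each gene, and 1 probe set per gene. Sox1 lies between 1163 and 1979 in the tumours, compared with 508 in the cerebellum, whereas Sox2 lies between 371 and 839 against 1636, and Sox11 spans 2738 to 13253.

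Sox1, a progenitor factor, gave signals of 1163, 1726, 1979 and 1687 in medulloblastomas 1 to 4, compared with 508 in the cerebellum. All 4 tumours were above it, and the lowest was medulloblastoma 1. The mean in the tumours was 1638 ± 343 (SD, n = 4), 3.23 times the cerebellum. The log2 difference was 1.60 ± 0.32 (limma, adjusted p = 0.0894), the furthest from 0 among the 10 genes, and 4.23% of all genes tested lay further from 0. Sox1 passed the threshold without medulloblastoma 1 (1.76 ± 0.23, limma, adjusted p = 0.00573). Of all genes, 5.89% passed there, beside 0.489% with every array, so that pass is not particular to Sox1. The adjusted p of Sox1 ranged from 0.00140 to 0.282 over 16 alternatives. A dimmer Sox1 probe set did not follow this pattern: it read 198, 170.3, 45.3 and 38.9 in the tumours, compared with 59.2 in the cerebellum. There the ken tumours were above the cerebellum and the hmk tumours below it, with a difference of 0.47 ± 0.89. With both probe sets averaged, Sox1 differed by 1.04 ± 0.37 (limma, adjusted p = 0.282) and was no longer at least 2-fold above in every tumour.

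Sox2, which marks neural stem cells and Bergmann glia, had signals below the cerebellum in each tumour, at 371, 505, 839 and 709 against 1636 in the cerebellum. No tumour reached the cerebellum, and the hmk tumours were nearer to it than the ken tumours. The tumours averaged 606 ± 208 (SD, n = 4), 0.370 times the cerebellum. The difference was -1.45 ± 0.42 (limma, adjusted p = 0.196), with -1.84 for the ken pair and -1.05 for the hmk pair. In bulk tissue, fewer cells with a transcript and less transcript per cell cannot be told apart.

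Sox3, the third progenitor factor, read 247, 298, 236 and 277 in the tumours, compared with 663 in the cerebellum. The tumours lay close together, with an SD of 0.14 on the log2 scale, and 10.8% of all genes tested varied less among them. The difference was -1.23 ± 0.34 (limma, adjusted p = 0.163). A second Sox3 probe set, too dim to be tested, also had all tumours below the cerebellum, at 63.6, 33.9, 134 and 14.4 against 229.7.

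Markers of astrocytes and Bergmann glia moved with Sox2 and Sox3. Of 9 such markers measured, 6 were below the cerebellum in every tumour and 1 above, beside 30.8% and 25.1% of all genes. Their summed signal was 17276 to 23858 in the tumours, compared with 45277 in the cerebellum. The median difference of these markers was -1.41, and their part in the Sox2 and Sox3 values was not tested. Sox1, which is also known from Bergmann glia, was on the other side. Granule neuron precursor markers did not move together. Of the 8, 4 were above and 3 below the cerebellum in every tumour (all genes, 25.1% and 30.8%). Atoh1, the factor that specifies these precursors, was called higher (2.81 ± 0.40, limma, adjusted p = 0.0336), at 4178 to 9505 in the tumours and 963 in the cerebellum. That call was lost without medulloblastoma 2, 3 or 4 (adjusted p = 0.138, 0.0678 and 0.105). Zic1 and Neurod1 were below the cerebellum in every tumour (-0.40 ± 0.21 and -0.81 ± 0.23, neither called).

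Markers of other cell types also lay on one side or the other. Of 5 mature granule neuron markers, 3 were at least 2-fold above the cerebellum in every tumour, beside 2.01% of all genes. They lay on the side of Sox1, and 1 marker was below in every tumour (median of the 5, 2.19). The summed signal of the 5 was 26661, 13449, 7094 and 9253 in medulloblastomas 1 to 4 and 10110 in the cerebellum. One of them, the GABA receptor subunit gene Gabra6, was called higher (3.99 ± 0.63, limma, adjusted p = 0.0468), a call lost without medulloblastoma 2, 3 or 4 (adjusted p = 0.161, 0.0536 and 0.114). All 9 markers of microglia and macrophages were above the cerebellum in every tumour, beside 25.1% of all genes, and 6 were at least 2-fold above, beside 2.01%. C1qa, Ctss and Tyrobp were called higher (limma, adjusted p = 0.0262, 0.0197 and 0.0468), where 0.312% of all genes were. The summed signal of the 9 was 17533 to 19451 against 6814, on the side of Sox1 and Sox9. Most markers of meninges and fibroblasts (5 of 7 below in every tumour, 4483 to 7494 against 18799) lay on the side of Sox2 and Sox3. One of them, Col3a1, was called lower (-2.40 ± 0.30, limma, adjusted p = 0.0254), where 0.177% of all genes were. Whether the calls of Col3a1, C1qa, Ctss and Tyrobp hold as each tumour is left out was not examined. Purkinje cell markers were divided: 5 of 7 were below in every tumour, but Pvalb was at least 2-fold above (2.38 ± 0.58, not called). Their summed signal was 7809 to 34927 against 39216 in the cerebellum. Over all genes, 30.8% were below in every tumour and 25.1% above. The part of these cell types in the Sox values was not tested.

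**Figure D2:**
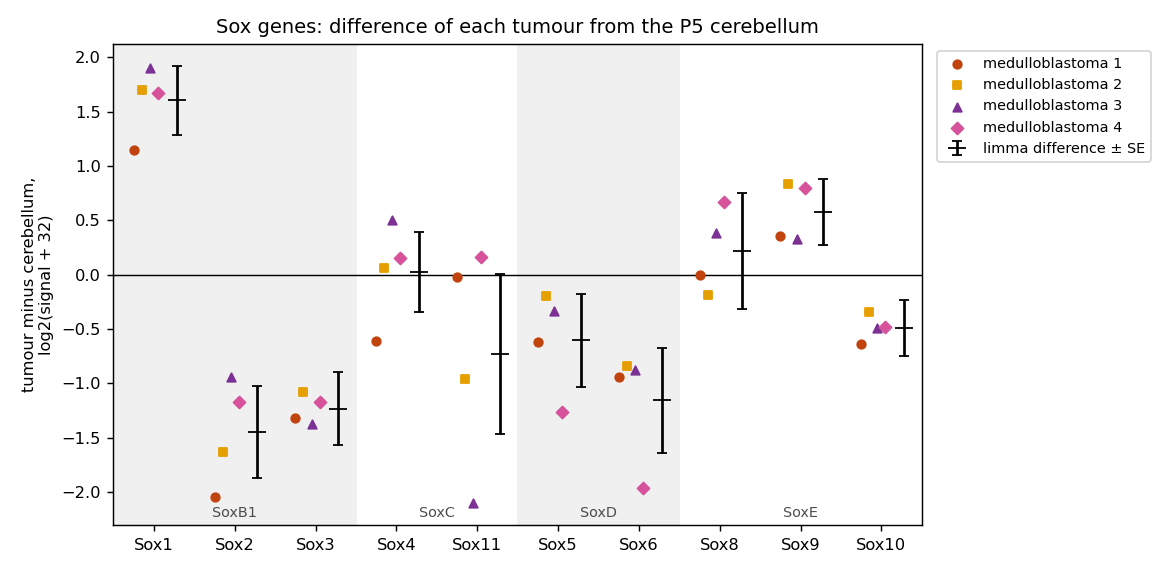
Difference of each tumour from the P5 cerebellum, in log2(signal + 32), for 10 Sox genes (coloured points), with the limma difference and its SE (black bar). Sox1 and Sox9 have all points above 0, and Sox2, Sox3, Sox5, Sox6 and Sox10 have all points below 0.

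A list of 12 genes of neural progenitors, where SoxB1 factors act, had 1 member above and 7 below the cerebellum in every tumour, beside 25.1% and 30.8% of all genes, and none was called. Its median difference was -0.37, beside -0.07 over all genes. The members furthest from 0 were Fabp7, a lipid-binding protein of radial glia (-2.42 ± 0.59), Hes5, a Notch target (-2.33 ± 0.51), and Pax6 (-1.02 ± 0.34). Hes5 read 100.4, 236, 264 and 260.5 in the tumours, compared with 1155 in the cerebellum.

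Sox4, a factor of differentiating neurons, showed no common side. Its signals were 5805, 9298, 12565 and 9910.5 in the tumours, compared with 8880.4 in the cerebellum, with medulloblastoma 1 below and the others above. The difference was 0.03 ± 0.37 (limma, adjusted p = 0.978), and its sign turned under 4 of 16 alternatives, quantile normalization among them.

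Among the 8 Sox4 probe sets, 1 was above the cerebellum in every tumour, 2 were below it in every tumour and 5 were neither. The probe set that stood above read 386, 599.6, 1295 and 733 in the tumours, compared with 92.1 in the cerebellum. Its difference was 2.54 ± 0.55 (limma over 31416 probe sets, adjusted p = 0.130), the largest of any Sox probe set. The other 3 probe sets designed to the same GenBank sequence differed by 0.31, 0.48 and 0.67, each with medulloblastoma 1 below the cerebellum. The lowest Sox4 probe set differed by -0.64 ± 0.58. Of those 3, the one nearest 0 read 1327, 2064, 2736 and 1796 in the tumours, compared with 1540.0 in the cerebellum. Medulloblastoma 3 was the highest tumour there as well. Another probe set, at 203, 252, 376 and 412 in the tumours, compared with 429 in the cerebellum, had all tumours below (-0.48 ± 0.44). One gene-level value for Sox4 therefore depends on which probe set is read.

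Sox11, the close relative of Sox4 in maturing neurons, varied most among the tumours. It read 11713, 6064, 2738 and 13253 in the tumours, compared with 11849 in the cerebellum, with medulloblastomas 1 and 4 near the cerebellum and medulloblastoma 3 far below. The SD was 1.04 on the log2 scale, and 96.8% of all genes tested varied less. The difference was -0.73 ± 0.73 (limma, adjusted p = 0.655).

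The other Sox11 probe sets did not set medulloblastoma 3 that far below. At the dimmest of them medulloblastoma 3 was instead the highest, at 5338, with 1343, 2001 and 2161 in medulloblastomas 1, 2 and 4 against 1046 in the cerebellum (1.15 ± 0.60). The remaining 4 had differences between -0.33 and 0.36. With all 6 averaged, the Sox11 difference was 0.11. The position of each probe set along the transcript was not known here, so transcript forms were not separated.

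Of 12 genes of early neurons, where SoxC factors act, 2 were above and 5 below the cerebellum in every tumour (all genes, 25.1% and 30.8%), and none was called (median -0.25). Stmn2, a microtubule regulator of growing axons, differed by -1.34 ± 0.46 and Dcx, a microtubule protein of migrating neurons, by -0.95 ± 0.23. Insm1, a factor of neuronal precursors, differed by 0.87 ± 0.34.

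**Figure D3:**
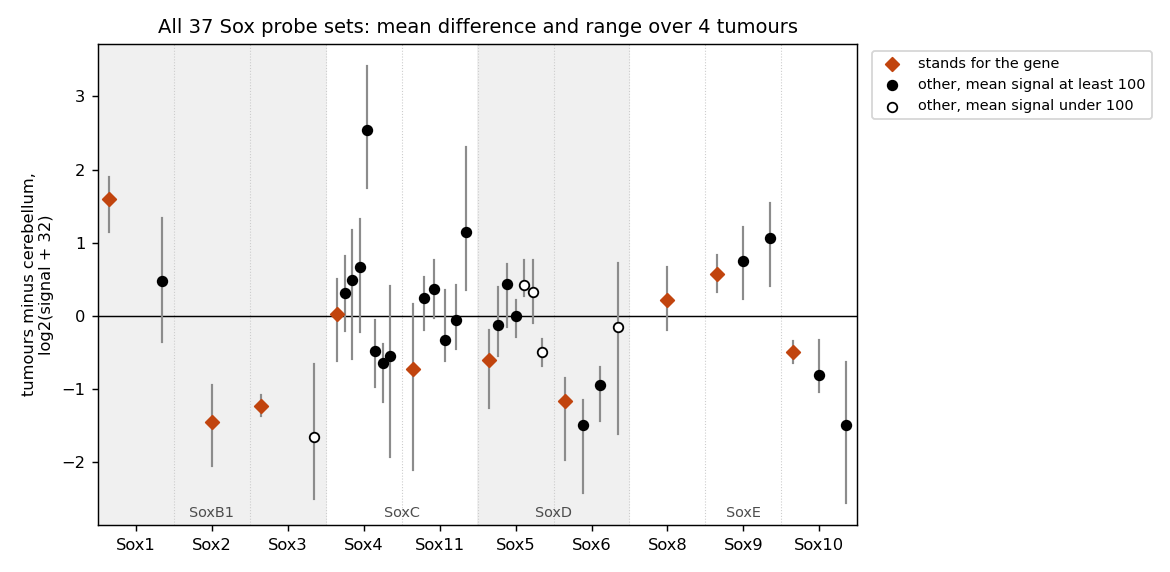
Mean difference of the tumours from the cerebellum at each of 37 Sox probe sets, in log2(signal + 32), with a line over the range of the 4 tumours, ordered within a gene from high to low mean signal. The 3 Sox9 probe sets lie above 0 and the 3 Sox10 probe sets below it, whereas Sox4 probe sets run between -0.64 and 2.54.

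Sox6, a SoxD factor, read 349.6, 377, 367 and 156 in the tumours, compared with 702 in the cerebellum. Medulloblastomas 1 to 3 lay close together and medulloblastoma 4 was the lowest. The difference was -1.16 ± 0.48 (limma, adjusted p = 0.314). The 2 other Sox6 probe sets bright enough to be tested were also below the cerebellum in every tumour (-1.49 ± 0.58 and -0.94 ± 0.47), again with medulloblastoma 4 lowest. The first of them read 200.2, 184, 201 and 65.0 in the tumours, compared with 485 in the cerebellum. One of them is of a kind that can bind related transcripts. The fourth, dim, read 7.18, 111.9, 93.2 and 167 in the tumours, compared with 88.4 in the cerebellum and took no side.

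Sox5, the partner of Sox6, read 434, 594, 534 and 265 in the tumours, compared with 683 in the cerebellum. All tumours were below, medulloblastoma 2 nearest to the cerebellum and medulloblastoma 4 furthest. The difference was -0.60 ± 0.43 (limma, adjusted p = 0.527), and 0.00 with the 7 Sox5 probe sets averaged. The 3 other tested probe sets differed by -0.13, 0.43 and 0.00, each overlapping the cerebellum. The one with the positive value read 235, 377, 456 and 456 in the tumours, compared with 266 in the cerebellum, so that medulloblastoma 1 alone was below. Sox5 therefore lay below the cerebellum in every tumour at 1 of its 4 tested probe sets.

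Sox5 and Sox6 work with Sox9 in cartilage, and cartilage genes were dim here. Of 6 such genes, 4 could be tested and none was called; in 3 each tumour was below the cerebellum, as for 30.8% of all genes (median -0.72). The furthest from 0 were Col2a1 (-1.25 ± 0.75), Col11a2 (-1.06 ± 0.44) and Acan (-0.38 ± 0.47), which encode cartilage matrix proteins.

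Sox9, which starts the glial programme in neural stem cells, read 975, 1375, 954 and 1331 in the tumours, compared with 754 in the cerebellum. Every tumour was above the cerebellum, by less than 2-fold. The tumours averaged 1159 ± 225 (SD, n = 4) and the difference was 0.58 ± 0.30 (limma, adjusted p = 0.396). The 2 other Sox9 probe sets were on the same side in each tumour, with differences of 0.75 ± 0.41 and 1.06 ± 0.69. The brighter of these read 368, 509, 599.6 and 765 in the tumours, compared with 309.7 in the cerebellum. The dimmer read 111, 146, 64.2 and 178 in the tumours, compared with 40.2 in the cerebellum. Medulloblastoma 4 was the highest at both, whereas medulloblastoma 2 was highest at the main probe set. Sox9 thus lay above the cerebellum where the summed astrocyte and Bergmann glia markers lay below it.

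Among 12 genes of early glia, where Sox9 acts, 3 were above and 7 below the cerebellum in every tumour (all genes, 25.1% and 30.8%). The median difference was -0.38. S100b was at least 2-fold above in every tumour, on the side of Sox9 (1.62 ± 0.35, not called), and 5 genes were at least 2-fold below. Over all genes, 2.01% were at least 2-fold above in every tumour and 2.63% below. Of the 12 genes, none was called higher and 3 were called lower, where 0.312% and 0.177% of all genes were. The 3 were the astrocyte enzyme gene Aldh1l1 (-2.64 ± 0.28), the water channel gene Aqp4 (-2.09 ± 0.27) and Mmd2, a membrane protein gene that Sox9 and Nfia regulate in mouse glial precursors. Mmd2 read 1111, 1232, 978 and 870.3 in the tumours, compared with 3547 in the cerebellum, a difference of -1.74 ± 0.27 (limma, adjusted p = 0.0468). A second Mmd2 probe set also had every tumour below the cerebellum (-1.55 ± 0.27), whereas the third, a dim one, differed by -0.50 ± 0.81. The calls were not firm. Aldh1l1 lost its call without medulloblastoma 2 or 4 (adjusted p = 0.0825 and 0.0670), and Aqp4 without medulloblastoma 2, 3 or 4 (adjusted p = 0.0825, 0.0704 and 0.0840). Mmd2 lost the call without medulloblastoma 2, 3 or 4 (adjusted p = 0.138, 0.113 and 0.114), with differences between -1.82 and -1.66.

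Sox10, a factor of oligodendrocytes and neural crest, read 711, 878, 791 and 795 in the tumours, compared with 1125 in the cerebellum. The tumours lay close together below it, with an SD of 0.12 on the log2 scale, and 7.65% of all genes tested varied less. They averaged 794 ± 68.0 (SD, n = 4), a difference of -0.49 ± 0.26 (limma, adjusted p = 0.401). At the 2 other Sox10 probe sets every tumour was also below, by -0.81 ± 0.37 and -1.49 ± 0.82. The first of these read 358, 603, 375 and 403 in the tumours, compared with 768 in the cerebellum. The tumours were further apart at the last one, which read 29.6, 187, 55.8 and 203 against 330.5.

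Sox8, which overlaps with Sox10 in oligodendrocytes and with Sox9 in glial precursors, read 129, 109, 177 and 225 in the tumours, compared with 129 in the cerebellum. The ken tumours were at or below the cerebellum and the hmk tumours above it. The difference was 0.22 ± 0.54 (limma, adjusted p = 0.873), with -0.09 for the ken pair and 0.53 for the hmk pair.

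Genes of the oligodendrocyte lineage lay on both sides of the cerebellum, whereas Sox10 lay below it. Of 11 markers measured, 4 were above and 2 below the cerebellum in every tumour (all genes, 25.1% and 30.8%), with a median of 0.07. Their summed signal was 42178, 25626, 24080 and 21178 in medulloblastomas 1 to 4, compared with 21645 in the cerebellum. In a list of 14 measured genes on which Sox10 acts in these cells or that share its lineage, 5 were above and 5 below the cerebellum in every tumour (all genes, 25.1% and 30.8%), with a median of 0.04. At least 2-fold below in every tumour, on the side of Sox10, were Gpr17, a receptor of oligodendrocyte precursors (-2.03 ± 0.50), and Nkx2-2, a factor of these precursors (-1.50 ± 0.35), neither of them called. Over all genes, 2.63% were at least 2-fold below in every tumour. The myelin gene Mobp was called higher (3.71 ± 0.58, limma, adjusted p = 0.0468). Its call was lost without medulloblastoma 2, 3 or 4 (adjusted p = 0.157, 0.0629 and 0.114), and its difference was 1.35 with all its probe sets averaged. Of 5 tested markers of Schwann cells and neural crest, the other lineage with Sox10, none was called (all genes, 0.312% higher and 0.177% lower). The crest factor gene Foxd3 was at or under 36.9 on every array.

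Across the 10 genes, the median difference from the cerebellum was -0.61, -0.27, -0.41 and -0.16 in medulloblastomas 1 to 4, beside -0.05, -0.04, -0.07 and -0.05 over all genes. The spread among the tumours ran from an SD of 0.12 (Sox10) to 1.04 (Sox11) on the log2 scale. Sox10, Sox3 and Sox9 differed by nearly the same amount in the ken pair (-0.49, -1.20 and 0.60) and in the hmk pair (-0.49, -1.27 and 0.56). Sox4 took opposite signs in the pairs, with -0.27 and 0.33.

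At the level of probe sets, 32 of the 37 passed the minimum mean signal of 100. None was called in limma over 31416 probe sets, where 0.210% were. Of the Sox probe sets, 6 had an unadjusted p under 0.05, 2 of them for Sox6. The share of all probe sets at that level was not counted, so the 6 cannot be set against it. Of the 32, 6 were above the cerebellum in every tumour and 11 below, against 24.5% and 28.6% of all probe sets tested. Within the tested probe sets, Sox9 (3) kept to the higher side and Sox2 (1), Sox3 (1), Sox6 (3) and Sox10 (3) to the lower side, and Sox4 held both sides. Some of these are not independent, since probe sets of 1 gene can share a source sequence. Sharing involved 4 and a further 2 of the Sox4 probe sets, 2 pairs for Sox11, and 2 probe sets each for Sox5, Sox9 and Sox10. Without medulloblastoma 1, the leading Sox1 probe set and the Sox4 probe set that stood above the cerebellum were called. At the level of genes, 5.89% of all were called without that tumour, beside 0.489% with every array.

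Outside the 10 genes, 10 further Sox genes were on the array and 8 could be tested. Sox18, a SoxF factor of endothelium and the lymphatic vessels, was the only one of them called. Over all genes, 0.312% were called higher and 0.177% lower. Sox18 read 3202, 3674, 5023 and 4560 in the tumours, compared with 981 in the cerebellum. Every tumour was at least 2-fold above, as for 2.01% of all genes. The difference was 2.01 ± 0.28 (limma, adjusted p = 0.0336). The call was lost without medulloblastoma 2, 3 or 4 (adjusted p = 0.138, 0.0708 and 0.105), while the difference stayed between 1.91 and 2.12 as each tumour was left out.

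The other SoxF genes were on the other side at their brightest probe sets: Sox17 differed by -1.01 ± 0.56 and Sox7 by -1.08 ± 0.57, both below the cerebellum in every tumour. A second Sox17 probe set was also below in every tumour (-1.33 ± 0.73). The second Sox7 probe set, too dim to be tested, took no side, at 20.6, 54.6, 101.6 and 66.2 against 51.5. The 7 endothelial markers were all below the cerebellum in every tumour, beside 30.8% of all genes, with a median of -1.51 and none called. Their summed signal was 1796 to 2675 in the tumours, compared with 5980 in the cerebellum. The Sox18 signal rests on 1 probe set, and no second one was there to set beside it.

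Prox1, which Sox18 induces in mouse lymphatic endothelium and which is also made by neurons, was the only one called of 12 tested genes for partners and regulators of Sox proteins. Over all genes, 0.312% were called higher and 0.177% lower. Prox1 read 381, 597, 639 and 666 in the tumours, compared with 42.1 in the cerebellum (2.99 ± 0.39, limma, adjusted p = 0.0262). Its 2 other probe sets differed by 1.16 ± 0.51 and 0.46 ± 0.47, and with all 3 averaged Prox1 was not called (1.54, adjusted p = 0.115). The call was also lost without medulloblastoma 2, 3 or 4 (adjusted p = 0.133, 0.0704 and 0.0931), over alternatives whose adjusted p ran from 0.000956 to 0.133.

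**Figure D4:**
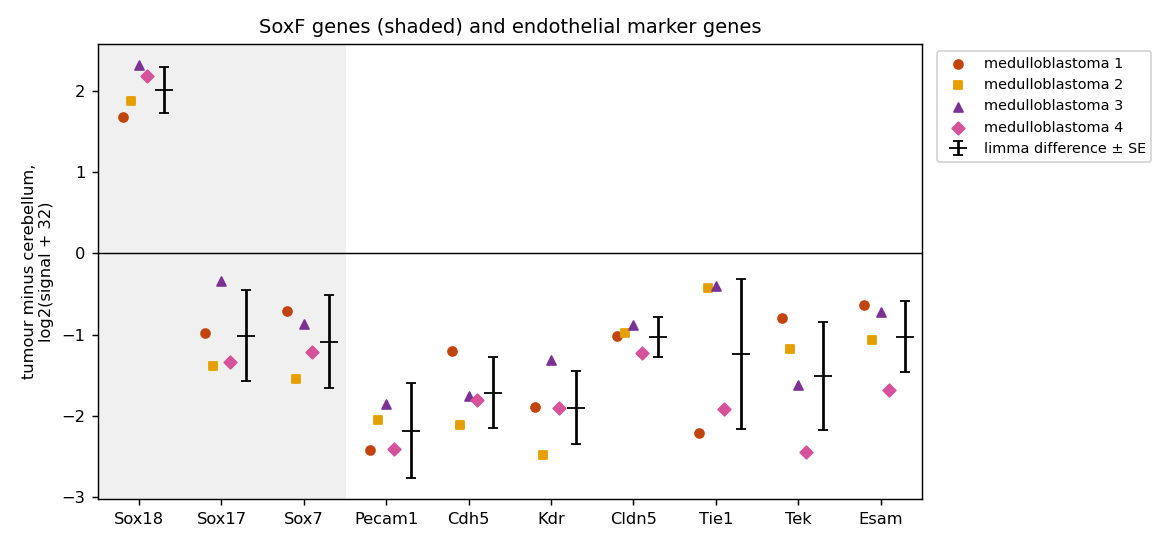
Difference of each tumour from the P5 cerebellum, in log2(signal + 32), for the SoxF genes (shaded) and 7 endothelial marker genes, with the limma difference and its SE (black bar). Sox18 lies at 2.01 with all tumours above 0, whereas Sox17, Sox7 and all 7 markers lie below 0 in every tumour.

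Of the remaining Sox genes tested, Sox15 was above the cerebellum in every tumour at low signals (115, 203, 179 and 102 against 26.8) and Sox13 was below (-1.61 ± 0.75). Sox12, the third SoxC gene, was below in every tumour with a difference of -0.48 ± 0.34. Sox21, a relative of the SoxB1 genes that opposes them, had probe sets that disagreed, with differences of 0.14 ± 0.57 and -2.52 ± 0.82. Sry read 78.6, 103, 95.6 and 341 in the tumours against 51.6 at a probe set that can bind related transcripts (0.97 ± 0.78). Its other probe set, too dim to test, had all tumours below the cerebellum, at 7.84, 17.1, 19.9 and 22.3 against 23.9. Sox14 and Sox30 were too dim to test. Sox2ot, the transcript that spans Sox2, was also too dim, at 144, 149, 5.93 and 21.5 in the tumours, compared with 76.6 in the cerebellum.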

How the data were processed

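The authors deposited linear intensities for each probe set, made with MAS5 per the submitters' processing notes for 4 arrays; for medulloblastoma 3 the tool is not given in the sources used here. The mean of each array without 2% of probe sets at each end was 500, so scaling to that target changed nothing visible. Arrays were grouped by their tissue labels. Probe sets with 1 symbol (34945 of 45101; 932 had several, 9160 others were unnamed and 64 were controls) were named through Entrez IDs, which matched for 34741. Each of 18193 genes was read from its probe set of highest mean signal, and 14109 with a mean of at least 100 were tested on log2(signal + 32), which understates changes of low signals, with limma 3.58.1 in R 4.3.3 (lmFit, eBayes with a variance trend, two-sided, Benjamini-Hochberg). A second fit covered 31416 probe sets. The fit was tested on simulated data with 200 of 14109 genes changed and the cerebellum drawn with the spread of the tumours. It called 1.3% of log2 changes of 1, 28.8% of 2, 48% of 3 and 57.5% of 4. A gene that was not called can therefore still differ. The rates hold for these simulated settings only, as 1 cerebellum shows no spread of its own. All 10 members were named, with further Sox genes and, per list, the genes called or the 3 furthest from 0; the remaining genes came in for a comparison. Members and lists were chosen with earlier results of these data known. The number of arrays limits the precision. Nothing says whether the tumours are separate animals, so p-values measure the spread between these samples.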

Additional observations from a re-analysis of the deposited data

Results flagged for a closer look

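Of 47 Sox probe sets and genes examined, 5 had 1 tumour far from the other 3, by a gap beyond Dixon's 95% critical value for 4 samples, as a share of their range on the log2 scale; chance flags about 1 in 20. Medulloblastoma 4 was the lowest at the brightest Sox6 probe set, with a gap of 0.910 of the range, at 156 against 349.6 to 377 in the other tumours. It was also lowest at the next Sox6 probe set, with a gap of 0.912, at 65.0 against 184 to 201. Medulloblastoma 4 was the highest at one Sox11 probe set, with a gap of 0.899, at 6267 against 3192 to 3418. The same held at the brighter Sry probe set, with a gap of 0.838, at 341 against 78.6 to 103. Medulloblastoma 3 was the highest at a dim Sox5 probe set, with a gap of 0.847, at 142 against 92.1 to 98.7.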

How the results depend on the processing

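Over 16 alternatives for each of the 10 genes (15 for Sox8, too dim for a minimum of 200), 150 of 159 values kept their direction and their side of the threshold, 6 turned their sign and 3 passed the threshold. Calls among the 10 genes were 2 with the hmk arrays alone (Sox1 and Sox2, adjusted p = 0.00140 and 0.0264), where 837 genes were higher and 841 lower in all, and 1 (Sox1) at an adjusted p under 0.10. Leaving out each tumour gave 0 to 1 calls, and 0 to 2 calls among probe sets, all of them without medulloblastoma 1. Calls over all genes were 69 with every array, 831 without medulloblastoma 1, and 2, 16 and 0 without medulloblastomas 2, 3 and 4, so leaving out 1 tumour can remove every call. They were 0 without a variance trend, 26 without a filter and 16 with all probe sets averaged. The count of genes for which each tumour lay 2-fold or more away was 1 with equal medians and with the larger constant before the log (Sox1), and 1 with all probe sets averaged (Sox3), and 2 to 3 as each tumour was left out. Equal medians moved the median of all genes from -0.07 to 0.12. Sox4 was -0.079 with quantile normalization, -0.27 in the ken tumours, and -0.13 and -0.02 without medulloblastomas 3 and 4 (0.24 at most as each tumour was left out). Sox8 was -0.093 in the ken tumours, and Sox11 was 0.11 with all probe sets averaged. Genes added to these alternatives after their values were seen kept their direction under all 16 alternatives, and their call under 12 (Aldh1l1), 10 (Aqp4), 9 (Sox18, Prox1, Mobp and Atoh1) or 8 (Mmd2 and Gabra6). The ken tumours have no cerebellum of that prefix, and fits with a pair of tumours take the spread from that pair. Causes were not tested. No paired analysis was possible because there is 1 cerebellum and the numbers are only names.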
